A study of Mus musculus with 18 samples.

Results

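The comparison described here sets proliferating C2C12 myoblasts that overexpressed the genomic, unspliced form of the long noncoding RNA MUNC against control C2C12 cells in the same growth medium. It holds 6 of the 18 libraries of the series, 3 labelled control GM and 3 labelled MUNC genomic GM, and was chosen by those labels and not by any measured value. Of 35275 genes listed, 13869 reached 0.5 FPM in at least 3 of the 18 libraries and were tested.

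Both groups were C2C12 cells, a mouse myoblast line, from a stock labelled PAX7 NEG, kept in high-glucose medium with 20% fetal bovine serum and collected at about 80% confluency. The control is labelled wild-type, and the other line is labelled as overexpressing MUNC genomic. The remaining libraries are a line overexpressing spliced MUNC in the same medium, and all 3 lines after 3 days in 2% horse serum. Polyadenylated RNA was sequenced. Groups follow the sample titles and the genotype and tissue labels, but the source label names the other stage, myoblasts or myotubes, in 9 of the 18 libraries. Of the 6 compared here these are MUNC genomic replicates 1 and 2, whose source label says myotubes. The summed level of mitosis genes in these libraries was 7805 and 7280 FPM. It was 7790 to 8782 FPM in control libraries in growth medium and 794 to 971 FPM in MUNC genomic libraries after 3 days in horse serum. The vector, its promoter, the number of clones and whether the control carried an empty vector are not given in the sources used here. A change caused by the MUNC transcript and one that arose while the line was derived therefore cannot be told apart.

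MUNC is transcribed from the distal regulatory region upstream of Myod1, the gene of a basic helix-loop-helix factor that starts the skeletal muscle program. It belongs to the enhancer-derived noncoding RNAs and is known for raising muscle genes at sites beyond its own locus. RefSeq places it at chr7:46371403-46372492 on GRCm38.p6, and GENCODE M21 places Myod1 at chr7:46376474-46379099 on GRCm38. No listed gene carried a name of MUNC, so its own level was not analysed and the overexpression was not checked here.

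The 6 libraries held 47534027 to 68788327 reads. FPM stands for the deposited normalized value, reads scaled for the size of the library and not for the length of the gene, so levels are compared between libraries and not between genes. Means are given ± SD with n = 3, and log2 changes, on the log2(FPM + 1) scale, ± SE, with Benjamini-Hochberg adjusted p-values from limma over all genes tested. The added 1 FPM makes the log2 changes of genes at low levels smaller. A gene is called higher or lower at an adjusted p under 0.05. The labels call the replicates biological but do not say whether they came from separate cultures, so p-values measure the spread between libraries. The fit pooled this spread within groups over all 18 libraries of the series. SEs, intervals and p-values therefore do not rest on the 6 compared libraries alone.

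In growth medium 3711 genes were called, 26.8% of those tested. Of these, 1694 were higher in MUNC genomic cells (12.2%) and 2017 were lower (14.5%). The split depended on the scaling: with every library scaled to the same sum, 2049 were higher and 1598 lower. At least a 1 unit log2 change was seen for 498 of the higher and 414 of the lower genes, and at least 4 units for 26 and 17. The 3 libraries of one group lay apart from the 3 of the other for 37.9% of tested genes, with MUNC genomic above in 16.8% and below in 21%. In the authors' deposited table of this comparison 3277 of 16477 genes have an adjusted p under 0.05, 1732 of them higher and 1545 lower. The shares of called genes above, 12.2% higher and 14.5% lower, are the background for the gene groups that follow. Counts near these shares do not set a group apart from all genes tested.

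Several of the largest rises were in genes that control libraries hardly read. Smoc2, which encodes a secreted calcium-binding matrix protein, stood at 0.205, 0.0708 and 0.23 FPM in control and 98.2, 48 and 98.2 FPM in MUNC genomic libraries (log2 change 6.07 ± 0.31, adjusted p = 2e-10). Igfbp2, a secreted carrier of insulin-like growth factors, was at 0.0512, 0 and 0 FPM in control and 62.3, 82 and 58 FPM in MUNC genomic libraries (log2 change 6.06 ± 0.23, adjusted p = 4.1e-12). In both genes every MUNC genomic library exceeded every control library by a wide margin. Stmn2, a microtubule-destabilizing protein of neurons, was at 1.6, 1.15 and 0.415 FPM in control and 99, 99.4 and 78.6 FPM in MUNC genomic libraries (log2 change 5.54 ± 0.18, adjusted p = 9.9e-13). Kcnab2, an auxiliary subunit of voltage-gated potassium channels, was at 1.76, 0.92 and 1.43 FPM in control and 91.7, 80.7 and 74.4 FPM in MUNC genomic libraries (log2 change 5.15 ± 0.14, adjusted p = 5.5e-14). Add2, a spectrin-binding protein of the membrane skeleton, rose from 1.19 ± 0.236 to 73.5 ± 16 FPM (log2 change 5.07 ± 0.15, adjusted p = 2.1e-13). The spliced MUNC line read all 3 of these genes below the control, with Stmn2 at 0.0252, 0.0183 and 0.018 FPM.

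Further genes among the 12 largest rises encode membrane proteins and a transcription factor. Cd200, an immunoglobulin-family surface ligand, was at 0.41, 0.336 and 0.0768 FPM in control and 71.3, 124 and 19.8 FPM in MUNC genomic libraries (log2 change 5.5 ± 0.51, adjusted p = 4.5e-07). Its 3 MUNC genomic values spread widely but did not overlap the controls. Gfra1, the co-receptor for the neurotrophic factor GDNF, rose from 1.52 ± 0.559 to 92.9 ± 25.6 FPM (log2 change 5.21 ± 0.27, adjusted p = 2.6e-10). Thsd7a, a transmembrane thrombospondin-repeat protein, rose from 2.12 ± 0.828 to 103 ± 32.9 FPM (log2 change 5.05 ± 0.28, adjusted p = 5.5e-10). Cacna1b, the pore-forming subunit of N-type calcium channels, rose from 0.0642 ± 0.0509 to 36.6 ± 13.3 FPM (log2 change 5.08 ± 0.18, adjusted p = 2.5e-12). Sox11, an HMG-box factor of embryonic progenitors, was at 0.444, 0.265 and 0.0922 FPM in control and 34.8, 34.8 and 32.8 FPM in MUNC genomic libraries (log2 change 4.8 ± 0.34, adjusted p = 1.5e-08), and the spliced MUNC line held it at 36.8, 31.5 and 42 FPM. Loxl2, a lysyl oxidase that crosslinks collagen, was at 10.1, 8.03 and 5.24 FPM in control and 249, 381 and 127 FPM in MUNC genomic libraries (log2 change 4.75 ± 0.33, adjusted p = 1.2e-08).

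Several of the largest falls took genes that control cells expressed to near 0. Colec12, a scavenger receptor with a collagen-like stem, was at 104, 101 and 65.7 FPM in control and 0.172, 0.473 and 0.462 FPM in MUNC genomic libraries (log2 change -6.04 ± 0.30, adjusted p = 1.5e-10). Brinp3, a neural protein linked to cell-cycle restraint, was at 68.5, 52 and 42.2 FPM in control and 0.0716, 0.0169 and 0.273 FPM in MUNC genomic libraries (log2 change -5.6 ± 0.20, adjusted p = 2.6e-12). Mgl2, a galactose-type lectin known from macrophages, fell from 36.2 ± 2.28 to 0.0225 ± 0.039 FPM (log2 change -5.18 ± 0.12, adjusted p = 1.8e-14). In each of them the lowest control library lay far above the highest MUNC genomic library. Slc24a3, a potassium-dependent sodium/calcium exchanger, was at 32.7, 52.7 and 26.3 FPM in control and 0.0286, 0 and 0 FPM in MUNC genomic libraries (log2 change -5.18 ± 0.20, adjusted p = 5.9e-12). Bhlhb9, on the X chromosome, fell from 24.7 ± 5.62 to 0.007002 ± 0.0121 FPM (log2 change -4.65 ± 0.15, adjusted p = 6.2e-13). Perp, a desmosome-associated p53 target, went from 25.4, 18.5 and 18.2 FPM to 0 reads in all 3 MUNC genomic libraries. Set against the limit that 0 reads allow, 3 reads in each library, it was at least 397-fold lower, and the same limit is used wherever a group had no reads.

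The neurofilament subunit gene Nefm was at 136, 106 and 242 FPM in control and 4.18, 5.17 and 7.86 FPM in MUNC genomic libraries (log2 change -4.54 ± 0.25, adjusted p = 4.7e-10). Pak3, a p21-activated kinase, fell from 25.4 ± 5.44 to 0.319 ± 0.185 FPM (log2 change -4.31 ± 0.19, adjusted p = 4.2e-11). Fam198b, a Golgi membrane protein, fell from 116 ± 37.9 to 3.8 ± 0.916 FPM (log2 change -4.57 ± 0.30, adjusted p = 5.9e-09). Ifit1 and Ifit3, antiviral proteins induced by interferon, are described with their group below. Abcb1b, a P-glycoprotein drug-efflux pump, stood at 978, 982 and 1261 FPM in control and fell to 55.3, 44.4 and 69.4 FPM (log2 change -4.24 ± 0.18, adjusted p = 1.5e-11). Its reads could be shared with the near-identical Abcb1a, which fell as well, from 14.7 ± 7.21 to 0.817 ± 0.444 FPM (log2 change -3.05 ± 0.26, adjusted p = 1.7e-07).

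**Figure D1:**
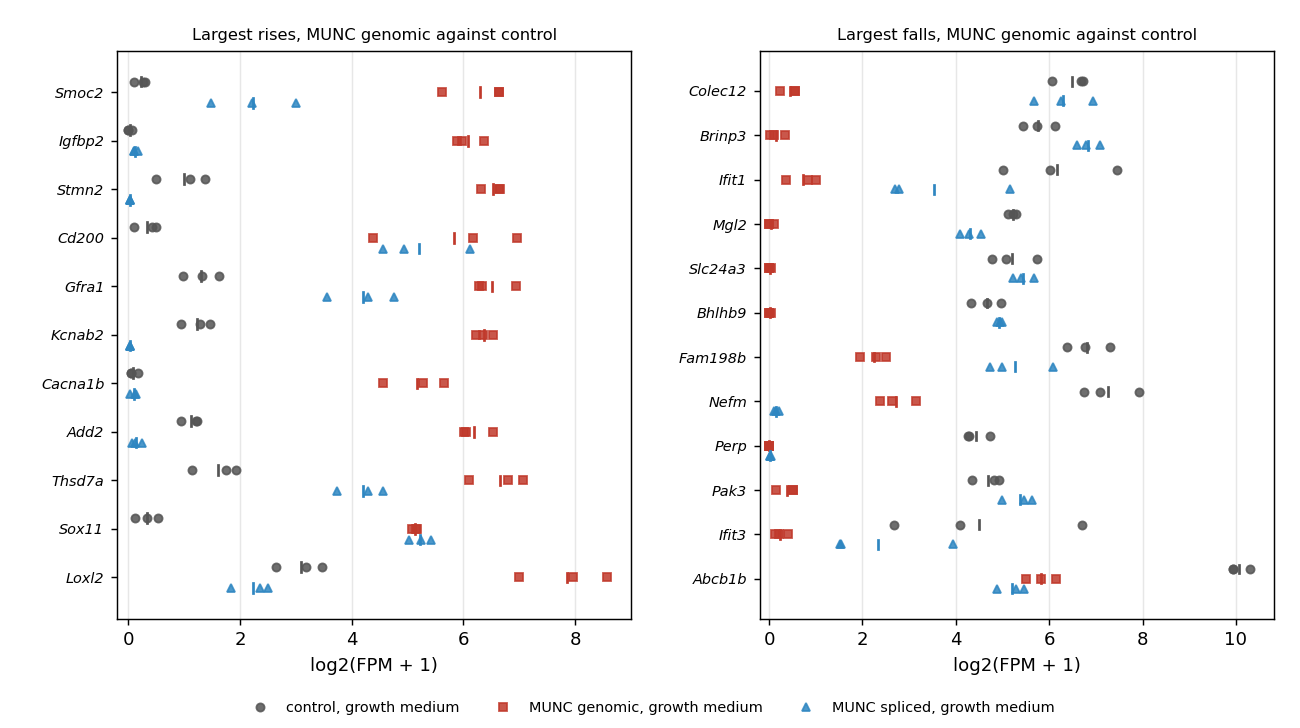
Each point is 1 library on a log2(FPM + 1) axis for 11 of the 12 genes that rose most (left) and the 12 that fell most (right), in control, MUNC genomic and MUNC spliced cells in growth medium, and the short bars are means of 3 libraries. No MUNC genomic library overlaps a control library, which the choice of genes required. The MUNC spliced libraries lie near MUNC genomic for Sox11, Cd200, Perp and Abcb1b and near control for Colec12, Slc24a3 and Bhlhb9.

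Called genes were spread unevenly over the chromosomes, a pattern noticed after the values were seen and given without a test. The median log2 change over the tested genes of a chromosome ran from -0.30 on chromosome 2 to 0.27 on chromosome 10. On chromosome 10, 31.9% of 697 genes were called higher and 4.3% lower. On chromosome 2 the shares were 4.52% higher and 36.8% lower of 1105 genes. Chromosomes 10, 1, 15 and 6 had the 4 highest medians and held 42.4% of all higher genes. Chromosomes 2, 12, 18 and 14 had the 4 lowest and held 40.3% of all lower genes. The 3 MUNC genomic libraries had like medians on each of these 8 chromosomes, while no control library departed from the control mean by more than 0.0762 on any chromosome. The difference between these lines on day 3 of differentiation, from other libraries, gave chromosome medians that correlated with these at r = 0.986 over 20 chromosomes. All points share the 2 lines, and the number of copies of each chromosome was not measured. With each library centred on its median per chromosome, a setting added after seeing the data, 2831 genes were called, 1429 higher and 1402 lower (20.4%, 10.3% and 10.1% of tested genes). With the replicate number as a block in the fit, the shares were 37.4%, 16.7% and 20.7%. Below, a count is given with this centring or this block where that moved it by over 1.5 times.

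**Figure D2:**
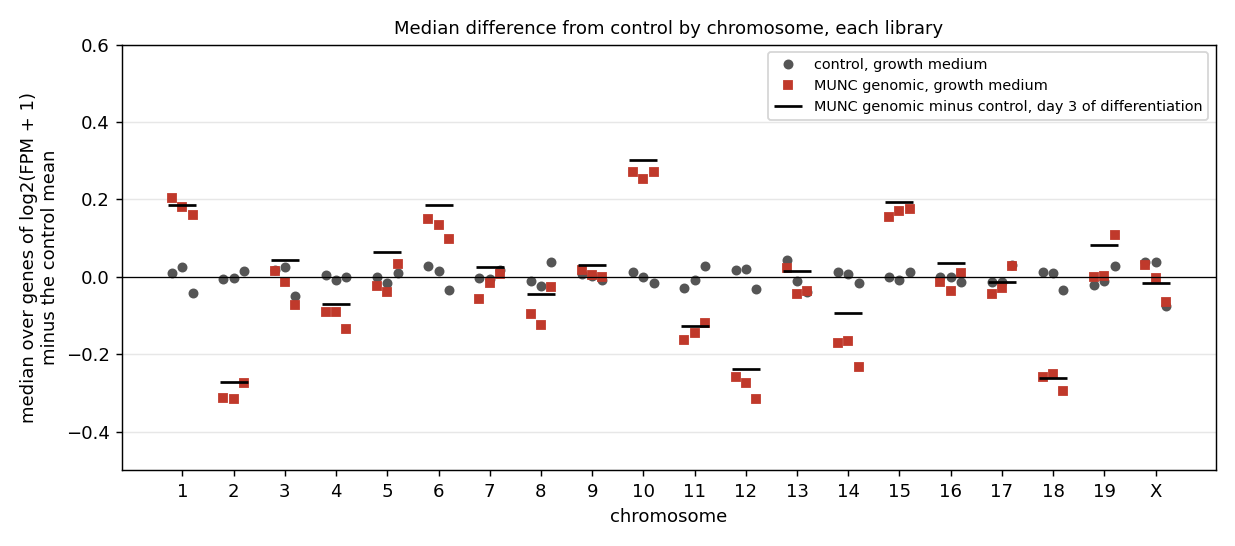
For each chromosome, the median over its tested genes of log2(FPM + 1) minus the mean of the 3 control libraries, one point per library in growth medium, and a black bar for the difference between the lines on day 3 of differentiation. MUNC genomic libraries sit above 0 on chromosomes 1, 6, 10 and 15 and below 0 on chromosomes 2, 12, 14 and 18, and the control libraries stay within 0.0762 of 0.

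Among the regulators of muscle fate, Myod1 was higher and Myf5 lower, while Myog stayed near 0. Myod1 stood at 0.0854, 0 and 0 FPM in control and 1.66, 2.87 and 6.99 FPM in MUNC genomic libraries (log2 change 2.08 ± 0.41, adjusted p = 0.0012), so no MUNC genomic library overlapped a control library. Its level was low in both, and with a pseudocount of 5 in place of 1 the call was lost (log2 change 0.77, adjusted p = 0.081). The spliced MUNC line held Myod1 at 17.9, 8.84 and 10.5 FPM, above MUNC genomic cells in the direct test (log2 difference -1.57 ± 0.41, adjusted p = 0.0069, genomic minus spliced). Myf5, the related factor that marks committed myoblasts, was at 67.8, 81.5 and 66 FPM in control and 24.3, 30.1 and 25.8 FPM in MUNC genomic libraries (log2 change -1.39 ± 0.17, adjusted p = 1.2e-05), also below the spliced line (log2 difference -1.11 ± 0.17, adjusted p = 9.6e-05). Myog, the factor of terminal differentiation, was at 0.0683, 0.0177 and 0 FPM in control and 0.143, 0.101 and 0 FPM in MUNC genomic libraries and was not called (log2 change 0.07 ± 0.45, adjusted p = 0.94). Myh3, the embryonic myosin heavy chain, was at 0.358, 0.354 and 0.215 FPM in control and 0.301, 0.152 and 0.063 FPM in MUNC genomic libraries and was not called (log2 change -0.16 ± 0.48, adjusted p = 0.86). Both were under 0.5 FPM in all 6 libraries, where 3 reads correspond to at most 0.063 FPM.

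Of 14 tested myogenic transcription factors, 5 were called higher and 1 lower, with a median log2 change of 0.18 against -0.03 over all genes tested. Without MUNC genomic replicate 2 only 3 were higher. With centring per chromosome 2 were lower. Eya4, a phosphatase that works as a transcriptional co-activator, was at 29.2, 33.1 and 25.5 FPM in control and 101, 100.4 and 67.3 FPM in MUNC genomic libraries (log2 change 1.57 ± 0.15, adjusted p = 9.1e-07). None of the 5 risers exceeded the spliced line. Of 12 tested neighbours of Myod1, 2 were called, Hps5 higher (log2 change 0.24 ± 0.08, adjusted p = 0.036) and Ldha lower (log2 change -0.55 ± 0.18, adjusted p = 0.03). Hps5 lost its call when any library but MUNC genomic replicate 3 was left out (adjusted p from 0.055 to 0.106). Ldha lost its call when any one of the 6 libraries was left out, with adjusted p-values from 0.0502 to 0.0894.

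The identity of the cells was checked on markers of myoblasts. Pax7, the satellite cell factor, had at most 1 read in any of the 6 libraries, in this stock labelled PAX7 NEG. Cdh15, the M-cadherin of myoblasts, was at 44.3, 48.7 and 45.7 FPM in control and 18.1, 29.3 and 21.2 FPM in MUNC genomic libraries (log2 change -1.01 ± 0.23, adjusted p = 0.0035). Itga7, the laminin-binding integrin subunit of muscle, was at 140.3, 221 and 159 FPM in control and 109, 174 and 125 FPM in MUNC genomic libraries and was not called (log2 change -0.35 ± 0.26, adjusted p = 0.35). Ncam1, a neural and muscle adhesion molecule, was at 41.9, 64.3 and 60.3 FPM in control and 66.7, 82.7 and 59.99 FPM in MUNC genomic libraries and was not called (log2 change 0.34 ± 0.18, adjusted p = 0.18). Des, the intermediate filament protein of muscle, was at 23.9, 32.7 and 16 FPM in control and 475, 622 and 332 FPM in MUNC genomic libraries (log2 change 4.25 ± 0.34, adjusted p = 7.1e-08). The spliced MUNC line had Des at 19.5, 42 and 22 FPM, which put the MUNC genomic line above both others. Pax7 and Itga7 were added to the named genes after their values were seen.

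Most structural genes of myotubes were not called. Of 37 tested contractile and myotube genes, 2 were higher (4 by edgeR, 7 by DESeq2) and 4 lower (median log2 change 0.06). Both higher genes, Des and the muscle acetylcholine receptor subunit Chrna1 (log2 change 1.25 ± 0.28, adjusted p = 0.0029), had groups that did not overlap. Further subunits of this receptor were lower: Chrnb1 fell from 62.8 ± 14.9 to 24.7 ± 5.21 FPM (log2 change -1.3 ± 0.25, adjusted p = 0.00088). Chrnd fell from 14.3 ± 6.41 to 3.69 ± 2.02 FPM (log2 change -1.71 ± 0.47, adjusted p = 0.012), though without control replicate 2 Chrnd lost its call (log2 change -1.4, adjusted p = 0.057). In the dystrophin complex, which ties the cytoskeleton to the matrix, 7 of 19 genes were lower (4 with centring per chromosome) and 2 higher (4 with the block). Dtna, encoding dystrobrevin alpha, fell from 43.9 ± 6.96 to 12.6 ± 4.02 FPM (log2 change -1.76 ± 0.18, adjusted p = 1.7e-06), and Sgcd, delta-sarcoglycan, fell from 18.8 ± 4.22 to 6.59 ± 1.06 FPM (log2 change -1.37 ± 0.20, adjusted p = 6.3e-05). Sspn, sarcospan, rose from 30.8 ± 9.16 to 67.2 ± 15.3 FPM (log2 change 1.12 ± 0.23, adjusted p = 0.0015). Among satellite cell markers, 4 of 15 were higher and 3 lower. Cd34, a surface sialomucin of progenitors, was at 1.74, 1.73 and 1.14 FPM in control and 23.8, 24.3 and 12.2 FPM in MUNC genomic libraries (log2 change 3.01 ± 0.22, adjusted p = 2.1e-08). Spry1, a feedback inhibitor of receptor tyrosine kinases, was at 0.0171, 0 and 0 FPM in control and 4.05, 5.2 and 1.6 FPM in MUNC genomic libraries (log2 change 2.11 ± 0.31, adjusted p = 7.7e-05). The heparan sulfate proteoglycans Sdc3 (log2 change -1.02 ± 0.21, adjusted p = 0.0015) and Sdc4 (log2 change -0.75 ± 0.14, adjusted p = 0.00064) were lower.

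Interferon-stimulated genes had the highest share of lower members among the gene groups examined. These genes are switched on when interferon receptors activate a transcription factor complex that holds IRF9 and binds an interferon-stimulated response element in their promoters, and they encode sensors and effectors against viral RNA and DNA. RefSeq promoter windows (GRCm38.p6) were available for 26 of the 36 members called lower. The 250 bases upstream of the start of 3 of the 4 members with the largest falls are shown 5′ to 3′, with each match to the letters GAAANNGAAA on either strand (on the other strand, TTTCNNTTTC) in capitals and overlapping matches run together. They are given so that these letters can be seen beside the values. Where a gene had several windows, the window with the most matches was taken.
Ifit1, chr19:34640639-34640888, plus strand: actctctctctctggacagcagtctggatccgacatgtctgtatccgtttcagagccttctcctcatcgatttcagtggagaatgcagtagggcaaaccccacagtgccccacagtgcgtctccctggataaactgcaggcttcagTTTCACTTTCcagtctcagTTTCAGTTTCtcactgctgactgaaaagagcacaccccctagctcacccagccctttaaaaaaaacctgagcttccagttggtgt
Ifit3, chr19:34583279-34583528, plus strand: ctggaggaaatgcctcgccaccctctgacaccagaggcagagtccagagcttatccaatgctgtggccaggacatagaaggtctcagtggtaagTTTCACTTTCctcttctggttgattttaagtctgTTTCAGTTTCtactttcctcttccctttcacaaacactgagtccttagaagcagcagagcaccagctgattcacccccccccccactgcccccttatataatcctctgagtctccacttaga
Isg15, chr4:156200819-156201068, minus strand: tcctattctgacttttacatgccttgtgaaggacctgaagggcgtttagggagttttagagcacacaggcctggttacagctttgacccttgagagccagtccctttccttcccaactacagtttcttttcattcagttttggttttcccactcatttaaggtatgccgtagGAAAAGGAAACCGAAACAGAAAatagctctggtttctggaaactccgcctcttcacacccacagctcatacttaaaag

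Both Ifit windows hold 2 such matches upstream of the start and that of Isg15 holds 3 overlapping ones, while the window of Ifih1, the fourth, holds none. Among the next largest falls, the windows of Gbp7, Igtp and Rsad2 hold 1 match upstream and those of Xaf1, Ifi44 and Oasl2 none. Of all 32851 windows of 300 bases in the table, 3.44% hold a match. The share was 54.8% of 31 windows for listed genes called lower and 37.5% of 16 windows for listed genes that were not. A match describes letters only and shows no binding.

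Of 56 tested interferon-stimulated genes, 36 were called lower and 1 higher, and the median log2 change was -1.33. On recovered reads, without the pseudocount of 1 FPM, this median was -2.89 by edgeR and -2.85 by DESeq2. Ifit1, which binds foreign RNA, was at 63.9, 174 and 31.4 FPM in control and 0.787, 0.996 and 0.294 FPM in MUNC genomic libraries (log2 change -5.43 ± 0.60, adjusted p = 4e-06). Ifit3, its partner, was at 15.9, 104 and 5.38 FPM in control and 0.315, 0.152 and 0.084 FPM in MUNC genomic libraries (log2 change -4.25 ± 0.76, adjusted p = 0.00054). Both had their highest control value in replicate 2, and even the lowest control library lay above all MUNC genomic libraries. Ifih1, the cytosolic sensor of long double-stranded RNA, was at 31.2, 66.3 and 21.9 FPM in control and 2.28, 1.96 and 0.63 FPM in MUNC genomic libraries (log2 change -3.87 ± 0.37, adjusted p = 6.7e-07). Isg15, a ubiquitin-like modifier, was at 19.5, 55.5 and 13.5 FPM in control and 1.76, 2.43 and 0.756 FPM in MUNC genomic libraries (log2 change -3.33 ± 0.43, adjusted p = 2e-05). The summed level of the list was 1616, 3139 and 1243 FPM in the control and 1314, 1433 and 985 FPM in the MUNC genomic libraries, so the sums overlapped. Without control replicate 2, the library with the highest sum, 29 members were lower and the median was -0.91. The higher member was Ly6e, a membrane-anchored protein named after its value was seen (log2 change 0.62 ± 0.19, adjusted p = 0.027), and it lost its call without control replicate 1 or 3 or MUNC genomic replicate 1 or 2 (adjusted p from 0.0782 to 0.123). The abundant members Ifitm3 (log2 change -0.22 ± 0.16, adjusted p = 0.34) and Irgm1 (log2 change 0.26 ± 0.22, adjusted p = 0.45) were not called.

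Genes of interferon production and signalling, chosen after their values were seen, did not all follow. Mb21d1, the DNA sensor cGAS, was at 36, 35.9 and 43.1 FPM in control and 7.13, 7.66 and 8.91 FPM in MUNC genomic libraries (log2 change -2.14 ± 0.21, adjusted p = 1.1e-06). Irf9, the DNA-binding subunit of the interferon-activated complex, fell from 24.9 ± 12.3 to 9.41 ± 1.36 FPM (log2 change -1.22 ± 0.25, adjusted p = 0.0016). Irf7, which amplifies interferon production, was at 4.27, 28.3 and 3.4 FPM in control and 0.802, 1.33 and 0.798 FPM in MUNC genomic libraries (log2 change -2.16 ± 0.54, adjusted p = 0.007), with control replicate 2 high. In a fit of the 2 compared groups alone, Irf7 was not called (log2 change -2.16, adjusted p = 0.062), and without control replicate 2 its log2 change was -1.29. Stat2 (log2 change -0.52 ± 0.35, adjusted p = 0.3) and the receptor genes Ifnar1 (log2 change 0.13 ± 0.09, adjusted p = 0.33) and Ifnar2 (log2 change -0.09 ± 0.11, adjusted p = 0.59) were not called. Irf3, the factor that sensors activate, was higher (log2 change 0.28 ± 0.09, adjusted p = 0.023) but not without control replicate 2 (log2 change 0.25, adjusted p = 0.073) or MUNC genomic replicate 2 (log2 change 0.27, adjusted p = 0.076). Ifnb1, interferon beta, had at most 3 reads in any of the 6 libraries. Of chemokines that interferon induces, Cxcl10 was at 8.31, 25.9 and 5.44 FPM in control and 0.0859, 0.405 and 0.063 FPM in MUNC genomic libraries (log2 change -3.32 ± 0.48, adjusted p = 6.9e-05). Ccl5 was at 5.16, 8.71 and 7.99 FPM in control and 0.0143, 0.0338 and 0.042 FPM in MUNC genomic libraries (log2 change -2.98 ± 0.31, adjusted p = 1.9e-06). Tap1, the peptide transporter of class I presentation, fell from 6.75 ± 4.43 to 0.658 ± 0.22 FPM (log2 change -2.09 ± 0.27, adjusted p = 2.4e-05), whereas the class I heavy chain gene H2-K1 rose from 47.1 ± 7.09 to 86.4 ± 11.8 FPM (log2 change 0.86 ± 0.17, adjusted p = 0.0015). Cxcl12, a chemokine that attracts progenitor cells, rose from 61.5 ± 8.4 to 159.8 ± 52.5 FPM (log2 change 1.33 ± 0.30, adjusted p = 0.0032). Il33, an alarmin, fell from 4.39 ± 0.318 to 0.385 ± 0.141 FPM (log2 change -1.96 ± 0.24, adjusted p = 1e-05). Only 7 of the 36 lower members were also below the spliced MUNC line in the direct test, among them Ifit1 (log2 difference -2.81 ± 0.60, adjusted p = 0.0018) and Ifih1 (log2 difference -2.29 ± 0.37, adjusted p = 0.00016), while Isg15 was not called there (log2 difference -1.08 ± 0.43, adjusted p = 0.059).

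**Figure D3:**
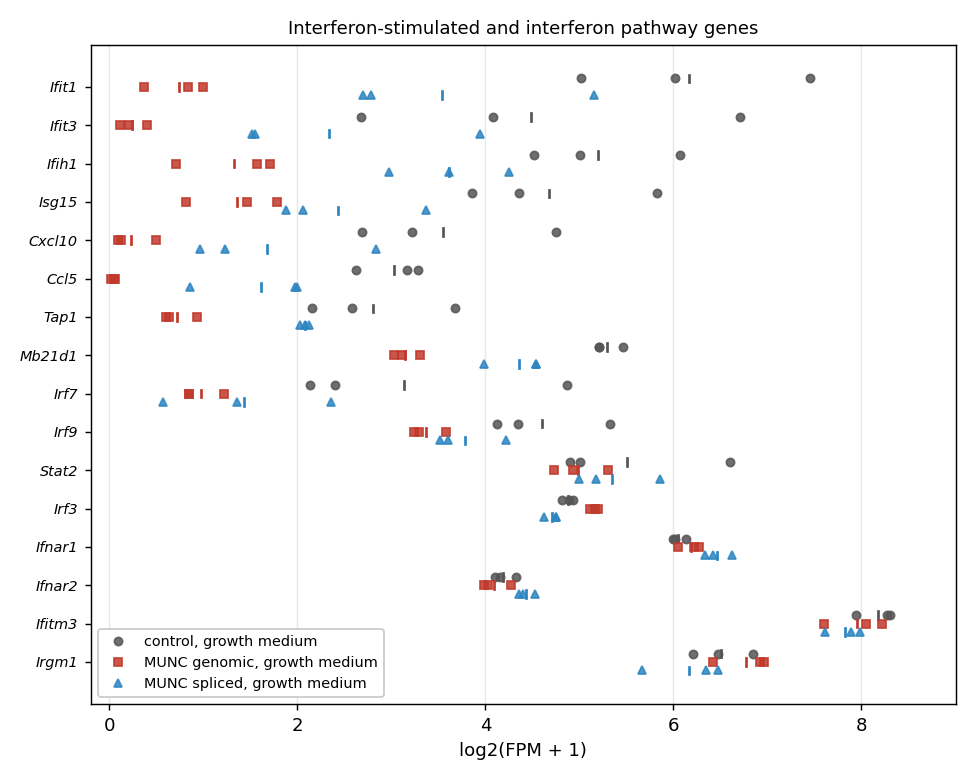
Levels on a log2(FPM + 1) axis in each control, MUNC genomic and MUNC spliced library in growth medium, with means as short bars, for interferon-stimulated genes (upper rows) and genes of sensing and signalling. MUNC genomic libraries lie below all control libraries for Ifit1, Ifit3, Ifih1, Isg15, Cxcl10, Ccl5, Tap1, Mb21d1, Irf7 and Irf9, and among them for Stat2 and Ifnar2.

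Receptors for cytokines were called in both directions, more often higher than lower. Of 23 tested, 7 were higher (13 with the block, 12 by DESeq2) and 4 lower. Their median log2 change was 0.41, and 6 of the 23 changes were below 0. With centring per chromosome 5 were higher and 5 lower, and the median was 0.38. Lifr, the receptor of leukemia inhibitory factor, rose from 9.36 ± 1.25 to 22.7 ± 6.51 FPM (log2 change 1.16 ± 0.27, adjusted p = 0.004), while Il4ra, the shared receptor chain for interleukins 4 and 13, fell from 103 ± 22.9 to 52.7 ± 13.4 FPM (log2 change -0.96 ± 0.24, adjusted p = 0.0071). Il1rap, the interleukin-1 co-receptor, fell from 27.4 ± 1.25 to 14.9 ± 1.62 FPM (log2 change -0.84 ± 0.12, adjusted p = 5.5e-05).

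Collagen chains were more often higher than lower. Fibrillar, basement membrane and beaded-filament collagens form the scaffold around muscle cells, and their chains assemble as trimers. Of 30 tested chain genes, 13 were called higher and 2 lower, with a median log2 change of 0.48. Col4a6, a basement membrane chain encoded on the X chromosome, was at 0, 0.0177 and 0 FPM in control and 20.2, 25.7 and 16.5 FPM in MUNC genomic libraries (log2 change 4.42 ± 0.16, adjusted p = 2e-12). Its neighbour Col4a5 was at 24.5, 31.1 and 13.7 FPM in control and 79, 94.7 and 39.9 FPM in MUNC genomic libraries (log2 change 1.57 ± 0.30, adjusted p = 0.00097). Col7a1, the anchoring fibril chain, was at 9.46, 9.33 and 14.2 FPM in control and 78.8, 117 and 96 FPM in MUNC genomic libraries (log2 change 3.04 ± 0.20, adjusted p = 3.9e-09). Col18a1, whose chain yields endostatin, was at 44.8, 75.3 and 50.4 FPM in control and 239, 435 and 258 FPM in MUNC genomic libraries (log2 change 2.41 ± 0.26, adjusted p = 3.1e-06). Col6a1, Col6a2 and Col6a3, which encode chains of collagen VI, a link between muscle basement membrane and the interstitial matrix, were higher. Col6a1 was at 193, 84.2 and 47.6 FPM in control and 800.0, 845 and 379 FPM in MUNC genomic libraries (log2 change 2.78 ± 0.42, adjusted p = 0.00012), and Col6a2 at 68, 18.6 and 14.4 FPM in control and 332, 289.7 and 139.8 FPM in MUNC genomic libraries (log2 change 3.12 ± 0.48, adjusted p = 0.00013). Col6a3 was at 573, 681 and 959 FPM in control and 1614, 1704 and 1727 FPM in MUNC genomic libraries (log2 change 1.22 ± 0.23, adjusted p = 0.00095). Col6a1 and Col6a2 lie on chromosome 10 and were highest in control replicate 1, which still lay below every MUNC genomic library. The lower chains were Col8a1 (log2 change -0.62 ± 0.16, adjusted p = 0.009) and Col5a1 (log2 change -0.44 ± 0.14, adjusted p = 0.024). Col5a1 lost its call with centring per chromosome (log2 change -0.15, adjusted p = 0.5), with equal sums (log2 change -0.38, adjusted p = 0.057) and without control replicate 2, control replicate 3, MUNC genomic replicate 1 or MUNC genomic replicate 3 (adjusted p from 0.06 to 0.096), each of which left 1 chain lower. The abundant fibrillar chain Col1a2 was at 3742, 4586 and 3076 FPM in control and 4924, 6872 and 3714 FPM in MUNC genomic libraries and was not called (log2 change 0.42 ± 0.22, adjusted p = 0.19). Col4a5, Col18a1 and Col6a3 were named after their values were seen.

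Of the higher collagens, 8 were also above the spliced line. Col7a1 (log2 difference 3.32 ± 0.20, adjusted p = 1.2e-09), Col18a1 (log2 difference 2.59 ± 0.26, adjusted p = 1e-06) and Col4a6 (log2 difference 4.3 ± 0.16, adjusted p = 1.9e-12) were, whereas Col6a1 (log2 difference 0.57 ± 0.42, adjusted p = 0.31) and Col6a2 (log2 difference 0.01 ± 0.48, adjusted p = 0.99) were not called between the lines. Among enzymes that process and crosslink collagen, 6 of 19 were higher and 2 lower (4 with the block). Beside Loxl2, Pcolce2, an enhancer of procollagen cleavage, rose from 63.7 ± 21.4 to 258 ± 70.6 FPM (log2 change 2.02 ± 0.34, adjusted p = 0.00031). P4ha3, a prolyl hydroxylase subunit, rose from 4.35 ± 0.619 to 18.5 ± 1.13 FPM (log2 change 1.87 ± 0.17, adjusted p = 3.3e-07). Loxl1, another lysyl oxidase, fell from 202 ± 14 to 92.4 ± 28.3 FPM (log2 change -1.16 ± 0.15, adjusted p = 2.2e-05).

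Other matrix genes changed in both directions. Lama2, the laminin chain of the muscle basement membrane, was at 0.871, 0.885 and 0.261 FPM in control and 45, 54.7 and 26.6 FPM in MUNC genomic libraries (log2 change 4.65 ± 0.40, adjusted p = 1.6e-07), and the spliced line had 3.05, 4.8 and 0.992 FPM. Emilin1, an elastic fibre glycoprotein, rose from 31.8 ± 13.2 to 115 ± 41.5 FPM (log2 change 1.84 ± 0.35, adjusted p = 0.00098). Postn, periostin, rose from 69.6 ± 9.57 to 221 ± 80.03 FPM (log2 change 1.59 ± 0.32, adjusted p = 0.0016). Fbln5, an elastogenic fibulin, was at 28, 25.7 and 17 FPM in control and 1.9, 1.54 and 2.18 FPM in MUNC genomic libraries (log2 change -3.07 ± 0.25, adjusted p = 7.2e-08). Thbs2, a thrombospondin, fell from 498 ± 71.5 to 197 ± 17.1 FPM (log2 change -1.33 ± 0.20, adjusted p = 0.00013). The small leucine-rich proteoglycan Bgn fell from 1987 ± 216 to 851 ± 136 FPM (log2 change -1.23 ± 0.20, adjusted p = 0.0002). Among matrix metalloproteinases and their inhibitors, 3 of 14 were higher and 2 lower. The gelatinase gene Mmp2 was at 21.5, 21 and 24.7 FPM in control and 81.6, 97.8 and 60.5 FPM in MUNC genomic libraries (log2 change 1.77 ± 0.24, adjusted p = 4.3e-05). Mmp9, another gelatinase gene, was at 0.0171, 0.0177 and 0.0154 FPM in control and 2.72, 5.47 and 0.609 FPM in MUNC genomic libraries (log2 change 1.73 ± 0.32, adjusted p = 0.00065). The membrane-type protease gene Mmp16 was at 19.6, 16.6 and 14.5 FPM in control and 0.0143, 0.0169 and 0 FPM in MUNC genomic libraries (log2 change -4.14 ± 0.15, adjusted p = 2.5e-12). The inhibitor Timp1 fell from 209.5 ± 83.5 to 97.9 ± 28 FPM (log2 change -1.05 ± 0.24, adjusted p = 0.0037). In the ADAM and ADAMTS family, 4 of 28 were higher and 4 lower (7 with the block). Over all genes tested the shares were 12.2% higher and 14.5% lower (20.7% lower with the block). The aggrecanase Adamts5 was at 94.1, 114 and 38.7 FPM in control and 16.7, 30.9 and 5.5 FPM in MUNC genomic libraries (log2 change -2.29 ± 0.45, adjusted p = 0.0012). Adamts12 rose from 5.36 ± 1.43 to 21.9 ± 6.34 FPM (log2 change 1.83 ± 0.21, adjusted p = 5.7e-06).

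**Figure D4:**
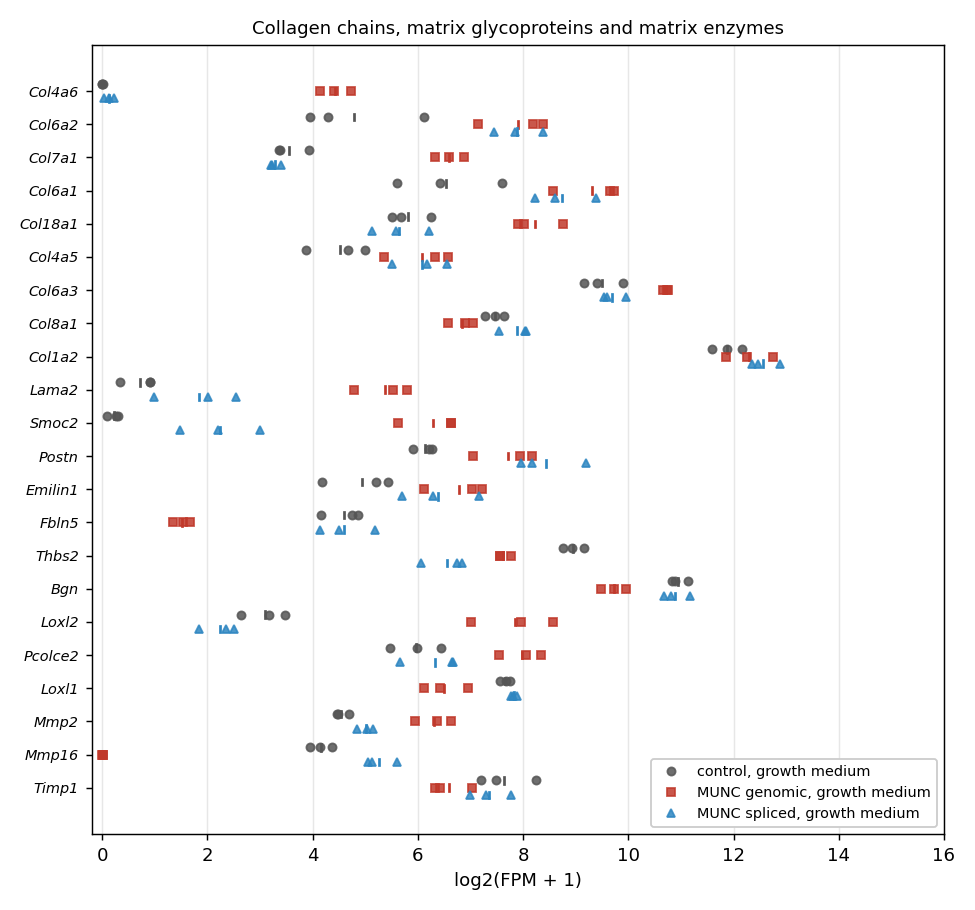
Levels on a log2(FPM + 1) axis in each control, MUNC genomic and MUNC spliced library in growth medium, with means as short bars, for collagen chains, matrix glycoproteins and matrix enzymes. Col4a6, Col7a1, Col18a1, Lama2, Smoc2 and Loxl2 are high only in the MUNC genomic libraries of the 3 groups shown, and Mmp16 is read in control and MUNC spliced libraries but near 0 in MUNC genomic libraries.

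Insulin-like growth factors drive both growth and differentiation of myoblasts, and their binding proteins hold the ligands outside the cell. Of 20 tested genes of this system, 4 were higher and 3 lower. Beside Igfbp2, Igfbp5 was at 35.5, 47.7 and 6.36 FPM in control and 294, 408 and 79.97 FPM in MUNC genomic libraries (log2 change 3.18 ± 0.65, adjusted p = 0.0016), with replicate 3 lowest in both groups, and Igfbp6 rose from 73 ± 4.08 to 144 ± 23.3 FPM (log2 change 0.96 ± 0.18, adjusted p = 0.00075). Igf2bp2, an RNA-binding protein of IGF2 messages, was at 1.79, 2.11 and 0.937 FPM in control and 14.4, 14.4 and 16.4 FPM in MUNC genomic libraries (log2 change 2.65 ± 0.28, adjusted p = 2e-06). Igf2r, which clears IGF2 and sorts lysosomal enzymes, was at 63.2, 114 and 77.9 FPM in control and 12.9, 22.4 and 3.13 FPM in MUNC genomic libraries (log2 change -2.92 ± 0.43, adjusted p = 9.5e-05). The antisense transcript Airn fell as well, from 3.17 ± 1.09 to 0.915 ± 0.54 FPM (log2 change -1.13 ± 0.26, adjusted p = 0.004), and whether counting used strand is not given in the sources used here, so reads of this pair could be shared. Irs1, the docking protein of the IGF receptor, fell from 173 ± 41.9 to 90.1 ± 10.6 FPM (log2 change -0.91 ± 0.19, adjusted p = 0.0022). Pappa, a protease that frees IGFs from binding proteins, fell from 18.4 ± 3.94 to 8.47 ± 1.81 FPM (log2 change -1.03 ± 0.25, adjusted p = 0.0053). The imprinted growth regulator Plagl1 was at 0.0171, 0 and 0.0154 FPM in control and 8.56, 7.88 and 5.4 FPM in MUNC genomic libraries (log2 change 3.01 ± 0.12, adjusted p = 1.4e-11), while H19 was not called (log2 change -0.49 ± 0.55, adjusted p = 0.58).

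Genes of the Wnt pathway were more often higher than lower. Secreted Wnt ligands act through Frizzled and LRP receptors, R-spondin receptors of the Lgr family strengthen the signal, and Dkk and Sfrp proteins antagonize it. Of 40 tested, 15 were higher and 4 lower (median log2 change 0.20, or 0.55 by edgeR and 0.58 by DESeq2). The ligand Wnt7b was at 7.44, 13.1 and 7.54 FPM in control and 85.3, 147 and 59.7 FPM in MUNC genomic libraries (log2 change 3.19 ± 0.39, adjusted p = 1e-05). Of the receptors, Fzd3 had 0 reads in all 3 control libraries and 4.81, 3.73 and 3.78 FPM in MUNC genomic cells, at least 81.9-fold higher, and Fzd6 was at 18.4, 21.5 and 21.2 FPM in control and 77.6, 79.8 and 63.7 FPM in MUNC genomic libraries (log2 change 1.8 ± 0.11, adjusted p = 3.2e-09). Lgr6 was at 4.35, 2.81 and 5.75 FPM in control and 81, 96.6 and 181 FPM in MUNC genomic libraries (log2 change 4.45 ± 0.39, adjusted p = 2.2e-07). Lgr4 was at 115, 80.7 and 101 FPM in control and 302, 243 and 297 FPM in MUNC genomic libraries (log2 change 1.5 ± 0.14, adjusted p = 3.1e-07). Of the antagonists, Sfrp2 was at 0.0171, 0 and 0 FPM in control and 14.6, 9.08 and 6.53 FPM in MUNC genomic libraries (log2 change 3.39 ± 0.20, adjusted p = 1.3e-09). Dkk2 fell from 12.4 ± 1.55 to 0.693 ± 0.37 FPM (log2 change -3.0 ± 0.33, adjusted p = 3.6e-06). Axin2, a feedback target of the pathway, was at 1.26, 0.779 and 2.84 FPM in control and 0.0143, 0 and 0 FPM in MUNC genomic libraries (log2 change -1.31 ± 0.23, adjusted p = 0.00048). The ligand, 4 of these receptors and Sfrp2 were higher while the target Axin2 was lower. Of the 15 higher genes, 10 were also above the spliced line, Wnt7b among them (log2 difference 4.35 ± 0.39, adjusted p = 2e-07). Fzd6 and Lgr4 were named after their values were seen.

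In the TGF-beta, BMP and activin system, the genes of 2 secreted BMP antagonists, Grem1 and Bmper, fell. Of 47 tested genes, 6 were higher (10 with the block, 10 by DESeq2, 10 without MUNC genomic replicate 3) and 10 lower (6 with equal sums, 6 without control replicate 2). Grem1 was at 647, 474 and 651 FPM in control and 90.8, 61.2 and 181 FPM in MUNC genomic libraries (log2 change -2.53 ± 0.38, adjusted p = 0.0001). Bmper was at 54.2, 59.1 and 45.6 FPM in control and 9.55, 6.74 and 5.97 FPM in MUNC genomic libraries (log2 change -2.7 ± 0.16, adjusted p = 1.2e-09). The type I receptor gene Bmpr1b was at 0.119, 0.159 and 0.0922 FPM in control and 9.42, 8.19 and 5.38 FPM in MUNC genomic libraries (log2 change 2.92 ± 0.15, adjusted p = 2e-10). The inhibitory Smad6 rose from 1.94 ± 0.319 to 5.06 ± 0.237 FPM (log2 change 1.05 ± 0.17, adjusted p = 0.00026). Grem1 was lower still in the spliced line, at 33.8, 18.1 and 22.8 FPM (log2 difference 2.01 ± 0.38, adjusted p = 0.0006, genomic minus spliced).

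Ligands and receptors of tyrosine kinase pathways moved in both directions. Of 39 growth factors and receptors outside the FGF and IGF lists, 12 were higher and 8 lower. Ptn, the heparin-binding factor pleiotrophin, was at 14.1, 6.09 and 1.75 FPM in control and 105, 116 and 41.5 FPM in MUNC genomic libraries (log2 change 3.6 ± 0.51, adjusted p = 5.4e-05). Pdgfd (log2 change 3.21 ± 0.28, adjusted p = 2.4e-07), Pdgfb (log2 change 2.28 ± 0.31, adjusted p = 3.8e-05) and the receptor Pdgfra (log2 change 1.61 ± 0.19, adjusted p = 7.3e-06) of the platelet-derived growth factor system were higher. Egfr, the epidermal growth factor receptor, was at 27.7, 46.6 and 37.6 FPM in control and 12.3, 14.6 and 12 FPM in MUNC genomic libraries (log2 change -1.43 ± 0.24, adjusted p = 0.00036), and its ligand Ereg fell from 44.5 ± 4.11 to 20.5 ± 3.33 FPM (log2 change -1.09 ± 0.27, adjusted p = 0.0068). In the FGF pathway, the ligand gene Fgf10 was at 8.18, 7.65 and 3.13 FPM in control and 0.0286, 0 and 0.021 FPM in MUNC genomic libraries (log2 change -2.76 ± 0.30, adjusted p = 3.1e-06). The feedback inhibitor Spry4 fell from 17.5 ± 1.85 to 4.73 ± 0.965 FPM (log2 change -1.7 ± 0.22, adjusted p = 2e-05) while Spry1 rose, as given above. In the Notch pathway, the receptor gene Notch1 was at 13.9, 19 and 19.4 FPM in control and 3.13, 4.69 and 1.43 FPM in MUNC genomic libraries (log2 change -2.24 ± 0.28, adjusted p = 1.5e-05). The ligand gene Jag2 was at 9.78, 16.5 and 13.8 FPM in control and 32, 43.2 and 41 FPM in MUNC genomic libraries (log2 change 1.49 ± 0.27, adjusted p = 0.00064). Against the spliced line as well, Notch1 was lower (log2 difference -2.65 ± 0.28, adjusted p = 1.6e-06) and Jag2 higher (log2 difference 1.26 ± 0.27, adjusted p = 0.0017). Notch2, another receptor gene, was not called (log2 change 0.30 ± 0.20, adjusted p = 0.31). The abundant receptor kinase genes Axl (log2 change -0.03 ± 0.15, adjusted p = 0.92) and Met (log2 change 0.07 ± 0.18, adjusted p = 0.83) were not called either.

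Neuronal and axon guidance genes were called in both directions. Of 25 tested neuronal cytoskeleton, adhesion and synapse genes, 7 were higher and 11 lower. Beside Stmn2, Brinp3 and Nefm, the growth cone protein gene Gap43 was at 5.05, 5.52 and 6.19 FPM in control and 0.0573, 0.0506 and 0 FPM in MUNC genomic libraries (log2 change -2.67 ± 0.23, adjusted p = 1.7e-07). The adhesion molecule gene L1cam was at 103, 197 and 194 FPM in control and 30.1, 35 and 37.6 FPM in MUNC genomic libraries (log2 change -2.18 ± 0.24, adjusted p = 4e-06). Syt1, the calcium sensor of synaptic vesicles, rose from 0.779 ± 0.482 to 4.75 ± 0.872 FPM (log2 change 1.72 ± 0.18, adjusted p = 2.6e-06). Of semaphorins, plexins and neuropilins, 9 of 28 were higher (5 with centring per chromosome, 4 without control replicate 1, 5 without MUNC genomic replicate 2) and 5 lower (3 without control replicate 3, 2 without MUNC genomic replicate 1). Sema3c was at 0.41, 0.991 and 0.154 FPM in control and 17.4, 39.9 and 7.67 FPM in MUNC genomic libraries (log2 change 3.66 ± 0.45, adjusted p = 1.1e-05). The receptor Plxna4 was at 0.256, 0.177 and 0.446 FPM in control and 17.8, 13.2 and 15.9 FPM in MUNC genomic libraries (log2 change 3.68 ± 0.17, adjusted p = 4.5e-11). Slit2, a repellent ligand of Robo receptors, was at 12.1, 18.1 and 11.6 FPM in control and 1.15, 1.27 and 0.021 FPM in MUNC genomic libraries (log2 change -3.1 ± 0.28, adjusted p = 3.3e-07). Ntn1, netrin-1, fell from 91.3 ± 10.9 to 32.6 ± 14.9 FPM (log2 change -1.55 ± 0.25, adjusted p = 0.0002). Of protocadherins, which sort cells by homophilic adhesion, 9 of 27 were higher and 3 lower. Pcdha10 was at 0.461, 0.159 and 0.0461 FPM in control and 25.8, 22.7 and 15.7 FPM in MUNC genomic libraries (log2 change 4.18 ± 0.18, adjusted p = 1.7e-11), though the shared exons of the alpha cluster could split its reads, and Pcdh7 at 29.7, 25.7 and 31.3 FPM in control and 137, 121 and 102 FPM in MUNC genomic libraries (log2 change 2.01 ± 0.12, adjusted p = 1.1e-09).

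Ion channels and transporters included some of the steepest changes. Of potassium channel genes, 10 of 27 were higher and 7 lower. Kcnh2, the pore of the rapid delayed rectifier, rose from 6.31 ± 2.57 to 33.6 ± 13.5 FPM (log2 change 2.23 ± 0.38, adjusted p = 0.00032). Kcnj15, an inward rectifier, rose from 1.14 ± 0.261 to 9.5 ± 0.94 FPM (log2 change 2.3 ± 0.14, adjusted p = 2.7e-09). Kcnh1, an ether-a-go-go channel known from fusing human myoblasts, was at 3.04, 3.4 and 7.18 FPM in control and 0.0286, 0.0338 and 0.063 FPM in MUNC genomic libraries (log2 change -2.34 ± 0.21, adjusted p = 3.3e-07). Kcnj2, the main inward rectifier of muscle, was at 13.1, 4.04 and 2.98 FPM in control and 0.587, 0.641 and 0.126 FPM in MUNC genomic libraries (log2 change -2.2 ± 0.41, adjusted p = 0.00086). Of 218 tested solute carriers (median log2 change 0.00), 42 were higher and 36 lower, against 12.2% and 14.5% of all genes tested. A pair of monocarboxylate transporter genes moved oppositely: Slc16a3, the lactate exporter, was at 1.83, 1.1 and 1.61 FPM in control and 42.6, 54 and 58.8 FPM in MUNC genomic libraries (log2 change 4.39 ± 0.19, adjusted p = 2.2e-11). Slc16a11 was at 64.7, 73.2 and 94.9 FPM in control and 3.75, 3.16 and 10.2 FPM in MUNC genomic libraries (log2 change -3.68 ± 0.35, adjusted p = 7e-07). Slc1a3, a glutamate transporter, rose from 6.33 ± 5.14 to 49.5 ± 24 FPM (log2 change 2.89 ± 0.49, adjusted p = 0.00034). Lpl, the lipase that frees fatty acids from lipoproteins, had 0 reads in all control libraries and 17.3, 14.6 and 12.6 FPM in MUNC genomic cells, at least 295-fold higher.

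Few genes of proliferation were called. Of 44 tested DNA replication genes, 0 were called higher and 1 lower by limma, 2 had an unadjusted p under 0.05, edgeR called 0 and 1, and limma with the block called 1 and 2. The lower one was E2f1, the factor that starts S phase (log2 change -0.63 ± 0.18, adjusted p = 0.015). It lost its call with centring per chromosome (log2 change -0.33, adjusted p = 0.2) and without control replicate 3 (log2 change -0.52, adjusted p = 0.069), MUNC genomic replicate 1 (log2 change -0.58, adjusted p = 0.057) or MUNC genomic replicate 2 (log2 change -0.51, adjusted p = 0.075). Of 37 mitosis genes, 0 were called by limma, 0 had an unadjusted p under 0.05 and edgeR called 0. Their median was -0.15, and in a fit of the 2 compared groups alone 5 were lower. Mki67, the proliferation antigen, was at 425, 662 and 557 FPM in control and 591, 604 and 559 FPM in MUNC genomic libraries (95% interval of the log2 change -0.70 to 0.94). Top2a, the replication topoisomerase, was at 1076, 1451 and 1100.5 FPM in control and 1040.3, 1026 and 922 FPM in MUNC genomic libraries (-1.14 to 0.61). The spread pooled over all 18 libraries leaves room for changes up to these limits. Ccnd2, a D-type cyclin, was at 89.4, 129 and 105 FPM in control and 224, 232 and 252 FPM in MUNC genomic libraries (log2 change 1.14 ± 0.17, adjusted p = 0.00013), while Ccnd1, another D-type cyclin, was not called (log2 change -0.22 ± 0.26, adjusted p = 0.59). Of 22 tested p53 targets, 3 were higher and 4 lower (2 with centring per chromosome), against 12.2% and 14.5% of all genes tested. The median log2 change of these targets was -0.11. Among them, Pmaip1, a BH3-only death protein, was at 0.0171, 0.23 and 0.138 FPM in control and 13.6, 11.9 and 12.1 FPM in MUNC genomic libraries (log2 change 3.58 ± 0.11, adjusted p = 2.6e-13). The stress cytokine gene Gdf15 was at 1.74, 2.04 and 1.12 FPM in control and 20.1, 27.2 and 23.8 FPM in MUNC genomic libraries (log2 change 3.24 ± 0.31, adjusted p = 6.4e-07), whereas Perp fell to 0 reads. Trp53 itself was not called (log2 change -0.23 ± 0.13, adjusted p = 0.2).

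Cytosolic ribosomal protein genes were lower by small amounts. Of 76 tested, 33 were called lower and 0 higher, 76 had a log2 change below 0, and the median was -0.45. The count was sensitive to single libraries: it was 15 without control replicate 1, 21 without control replicate 3, 15 without MUNC genomic replicate 1, 14 without MUNC genomic replicate 2 and 51 without MUNC genomic replicate 3. Rpl7a fell from 1082 ± 152 to 588 ± 114 FPM (log2 change -0.88 ± 0.15, adjusted p = 0.0004). Rps14 fell from 1012 ± 199 to 552 ± 58.3 FPM (log2 change -0.86 ± 0.16, adjusted p = 0.0007), while the abundant Rpl4 was not called (log2 change -0.25 ± 0.14, adjusted p = 0.23). None of the lower members was below the spliced line. Oxidative phosphorylation subunits showed 3 higher and 10 lower of 79, against 12.2% and 14.5% of all genes tested. With centring per chromosome 1 was lower, with equal sums 6, and without control replicate 1, MUNC genomic replicate 1 or MUNC genomic replicate 2 the counts were 4, 5 and 6. Immediate early genes, the first response to serum and stress, were lower in 9 and higher in 1 of 23 (median -0.51). Leaving out control replicate 1 gave 5 lower and 3 higher, leaving out MUNC genomic replicate 3 gave 5 and 3, and the block and DESeq2 each gave 3 higher (edgeR and equal sums 2). Nr4a1, an orphan nuclear receptor, was at 14.9, 20.3 and 10.1 FPM in control and 3.28, 8.05 and 0.903 FPM in MUNC genomic libraries (log2 change -1.89 ± 0.47, adjusted p = 0.0065), Egr3, a zinc finger factor, at 2.63, 1.15 and 2.61 FPM in control and 8.83, 11.1 and 3.76 FPM in MUNC genomic libraries (log2 change 1.44 ± 0.34, adjusted p = 0.0043), and Egr1 was not called (log2 change 0.12 ± 0.46, adjusted p = 0.89).

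Hox genes and single other transcription factors were called. Of 25 tested Hox genes, which record position along the body axis, 6 were higher and 0 lower by limma, with 10 of the group at an unadjusted p under 0.05 and 0 lower by edgeR, but 2 were lower with the block, 2 without control replicate 3, 1 without MUNC genomic replicate 2 and 5 with centring per chromosome. Hoxb6 was at 1.57, 2.12 and 2.01 FPM in control and 4.74, 5.55 and 5.82 FPM in MUNC genomic libraries (log2 change 1.14 ± 0.13, adjusted p = 3.7e-06). Hoxb4 was at 0.307, 0.212 and 0.123 FPM in control and 1.63, 1.57 and 1.58 FPM in MUNC genomic libraries (log2 change 1.1 ± 0.10, adjusted p = 2.5e-07), and all 6 higher Hox genes were also above the spliced line. Klf8, a zinc finger repressor on the X chromosome, was at 0, 0 and 0.0154 FPM in control and 6.34, 4.96 and 4.22 FPM in MUNC genomic libraries (log2 change 2.6 ± 0.12, adjusted p = 4.3e-11). Mkx, a homeobox factor of tendon, went from 6.09, 3.95 and 3.76 FPM to 0 reads, at least 88.2-fold lower. Foxo1, a forkhead factor restrained by insulin signalling, rose from 26 ± 5.22 to 55.1 ± 9.43 FPM (log2 change 1.06 ± 0.17, adjusted p = 0.00023). Among genes named Zfp, 23 of 317 were higher and 42 lower (67 with the block). Over all genes tested the shares were 12.2% higher and 14.5% lower (20.7% lower with the block).

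**Figure D5:**
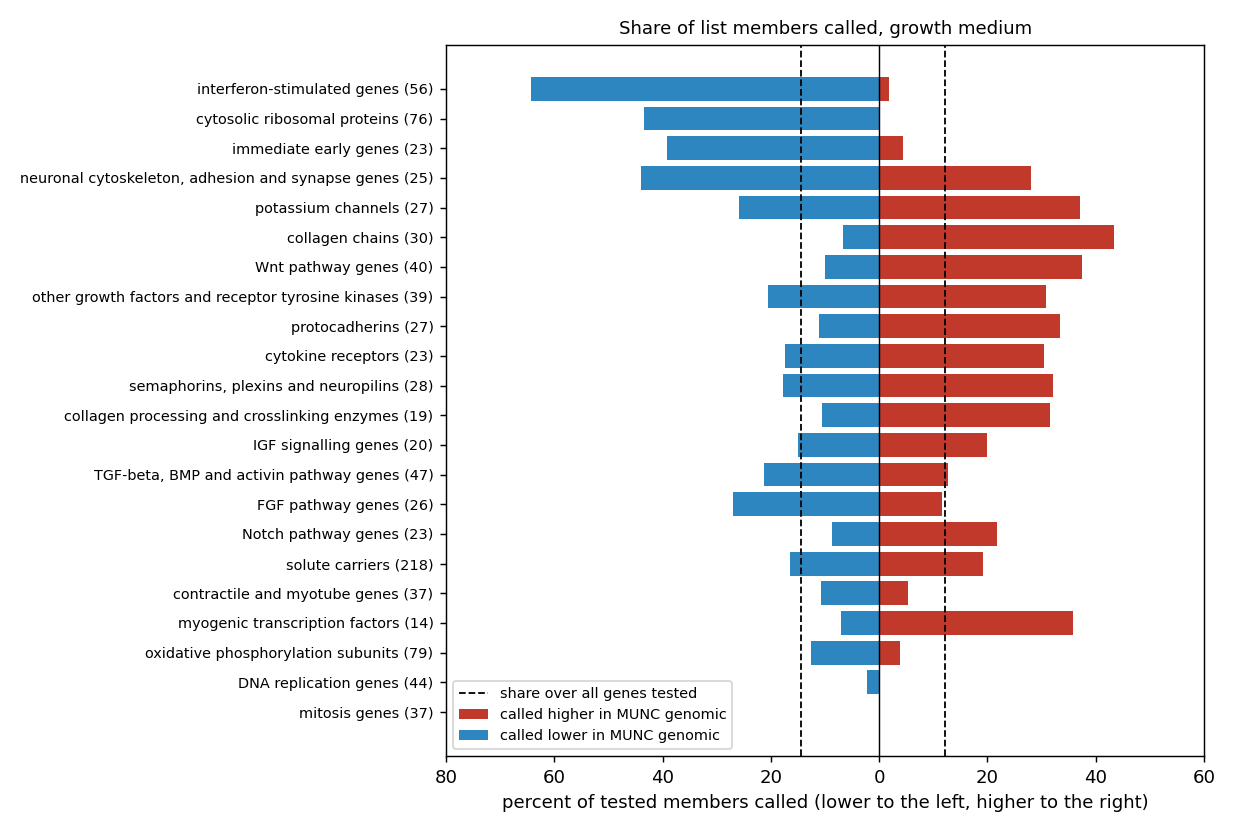
For each gene group, the percent of its tested members (number in brackets) called higher (right) or lower (left) in MUNC genomic than in control cells in growth medium, with dashed lines at the shares over all tested genes, 12.2% higher and 14.5% lower. Among the groups drawn, interferon-stimulated genes reach farthest to the left and collagen chains farthest to the right, and mitosis genes have no bar.

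Markers of other cell types gave a measure of what else the cultures could hold. Fewer cells of a type and less RNA per cell cannot be told apart in such bulk libraries. The defining genes Pecam1 (endothelium), Ptprc (leukocytes), Sox10 (Schwann cells), Epcam and Cdh1 (epithelium) were under 0.5 FPM in all 6 libraries, with Epcam at 0 reads. The summed macrophage and leukocyte markers were 20.5 to 23.2 FPM in control and 16.6 to 19.7 FPM in MUNC genomic libraries, with 0 of 3 tested called by limma, 1 at an unadjusted p under 0.05 and 0 called by edgeR. Endothelial marker sums were 2.61 to 3.11 FPM in control and 7.29 to 7.96 FPM in MUNC genomic libraries. Schwann and neuron marker sums were 1.44 to 2.92 FPM in control and 5.15 to 7.28 FPM in MUNC genomic libraries. Neither these sums nor those of macrophages and leukocytes overlapped between the groups. Epithelial marker sums did, at 25.3 to 67.2 FPM and 65 to 95.3 FPM. Of 3 tested epithelial markers, 2 were called higher. Single markers moved as follows. The keratin gene Krt8 was at 0.137, 0.212 and 0.461 FPM in control and 7.73, 14.9 and 8.21 FPM in MUNC genomic libraries (log2 change 3.1 ± 0.20, adjusted p = 3.5e-09). Krt19 was at 2.42, 1.56 and 1.14 FPM in control and 11.3, 14.6 and 7.25 FPM in MUNC genomic libraries (log2 change 2.13 ± 0.25, adjusted p = 6.6e-06). Cdh5, the cadherin of endothelium, was at 0.0512, 0.407 and 0.138 FPM in control and 7.21, 7.21 and 6.99 FPM in MUNC genomic libraries (log2 change 2.77 ± 0.12, adjusted p = 2.1e-11), while Flt1, a VEGF receptor, fell from 2.4 ± 0.186 to 0.205 ± 0.0831 FPM (log2 change -1.5 ± 0.13, adjusted p = 2.4e-07). Of 10 tested fibroblast markers, Cd34 and Pdgfra were higher and 1, Ly6a, the surface antigen Sca-1, lower (log2 change -1.79 ± 0.40, adjusted p = 0.003), with 2 lower under the block, with centring per chromosome and without control replicate 3 or MUNC genomic replicate 2, and Ly6a was not called in a fit of the 2 compared groups alone (log2 change -1.79, adjusted p = 0.056). Fibroblast marker sums overlapped between the groups, at 4049 to 6949 FPM in control and 3306 to 9353 FPM in MUNC genomic libraries.

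The spliced MUNC line in the same medium allows these differences to be set against those of a second overexpressing line. Because both lines share the control libraries, they were compared directly. Between them 4970 genes were called (35.8%), 2213 higher (16%) and 2757 lower (19.9%) in MUNC genomic cells. Of the genes higher than control, 50.8% were also higher than in the spliced line, and of those lower, 45.4% were also lower. For 46.3% of the genes called against control, no difference between the lines was called. The direct test reuses the MUNC genomic libraries by which these genes were called. Such overlaps, here and in the gene groups above, are therefore raised by the choice of genes and are not independent support. Igfbp2 (log2 difference 5.95 ± 0.23, adjusted p = 3.7e-12) and Des (log2 difference 4.08 ± 0.34, adjusted p = 8.8e-08) were above the spliced line, and Colec12 (log2 difference -5.84 ± 0.30, adjusted p = 2.2e-10) and Brinp3 (log2 difference -6.67 ± 0.20, adjusted p = 2e-13) below it. Sox11 (log2 difference -0.10 ± 0.34, adjusted p = 0.86) and Perp (log2 difference -0.03 ± 0.15, adjusted p = 0.9) did not differ between the lines beyond their spread. Nefm was lower than control in MUNC genomic cells but higher than in the spliced line (log2 difference 2.56 ± 0.25, adjusted p = 5.5e-07).

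The difference between MUNC genomic and control cells was also set against the same difference after 3 days of differentiation, which shares none of these libraries and called 40.3% of tested genes (19.3% higher, 20.9% lower). Of the called genes, 67.4% were called in the same direction there and 1.56% in the opposite one. The test of the difference between the media called 1222 genes (8.81% of those tested), and 2265 with the replicate block. With its sign kept, the log2 difference was higher on day 3 for 3.56% of tested genes and lower for 5.25%. Lower here includes falls that were deeper on day 3. The called genes included 48 of 56 interferon-stimulated genes, a list whose median log2 change was -1.33 in growth medium and -4.82 on day 3. Their summed level on day 3 was 16329 to 24059 FPM in control cells, against 1759.8 to 1874 FPM in MUNC genomic cells.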

How the data were processed

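The authors deposited 1 expression table of all 18 libraries, whose columns hold a normalized signal called FPM here. Every value was a whole multiple of what 1 read is worth in its library (100% of values within 0.05 read), so read counts were recovered, although a label names the values FPKM. Per the submitters' processing notes, STAR, HTSeq, DESeq2 and the mm10 build were used, with versions and strand setting not given in the sources used here. The authors' deposited comparison tables hold log2 fold changes, p-values and a score per gene. Of these, only the counts of genes past the threshold were used. Gene symbols come from them, and 122 identifiers share a symbol with another. GENCODE M21 (GRCm38) held 34490 of the 35275 identifiers. Near-identical or overlapping genes could share or lose reads. Groups follow the sample titles, and the source label names the other stage in 9 of the 18 libraries, 2 of the 6 among them. No libraries were duplicates within the control or the MUNC genomic group in growth medium, and the other libraries were not checked for this.

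log2(FPM + 1) of the 13869 tested genes was fitted with limma 3.58.1 (R 4.3.3) over 6 groups of 3 libraries, with a trended prior and 12 residual degrees of freedom, and p-values were adjusted by Benjamini-Hochberg. Alternatives used edgeR 4.0.16 and DESeq2 1.42.0 on the recovered counts, other pseudocounts, filters and scalings, the replicate number as a block, and each library left out in turn. The script was tested on simulated data. Intervals and the limit of 3 reads cover the spread between libraries and counting error, respectively. The replicate numbers come from the titles. Over all tested genes, the deviations of same-numbered control and MUNC genomic libraries in growth medium from their group means correlated at 0.494, 0.629 and 0.726, and the numbers were taken to pair the libraries. Other groups were not looked at in this way. The main fit did not use the pairing, and SEs and adjusted p-values come from it unless another setting is named. The block gave each replicate number 1 effect shared by all 6 groups.

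The members and gene lists were chosen with earlier results of these data known. The text names the muscle regulators, the 12 largest rises and 12 largest falls with groups that do not overlap and a mean of at least 5 FPM in the higher group, up to 4 called genes per direction and up to 2 uncalled abundant genes of each list, and all called genes of lists with at most 5 calls. Some genes this rule names are not reported here.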

Additional observations from a re-analysis of the deposited data

Results flagged for a closer look

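The test of whether the difference between MUNC genomic and control cells changed with the medium called 1222 genes, and among the muscle regulators and the genes with the largest changes it called the following. The value given is the log2 difference on day 3 of differentiation minus that in growth medium, on the log2(FPM + 1) scale ± SE, with limma's adjusted p.

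Among muscle genes it was 2.04 ± 0.58, adjusted p = 0.036 for Myod1, with 0.0854, 0 and 0 FPM in control and 1.66, 2.87 and 6.99 FPM in MUNC genomic cells in growth medium, and 0.0768, 0 and 0.221 and 18.1, 22.5 and 14.5 FPM on day 3. It was 2.85 ± 0.64, adjusted p = 0.0095 for Myog, with 0.0683, 0.0177 and 0 FPM in control and 0.143, 0.101 and 0 FPM in MUNC genomic cells in growth medium, and 0.192, 0.434 and 0.405 and 7.89, 14.7 and 6.5 FPM on day 3. For Myh3 it was 3.01 ± 0.68, adjusted p = 0.011, with 0.358, 0.354 and 0.215 FPM in control and 0.301, 0.152 and 0.063 FPM in MUNC genomic cells in growth medium, and 0.461, 0.375 and 0.497 and 7.66, 13 and 8.27 FPM on day 3. MUNC genomic libraries were above control libraries on day 3 in these 3 genes, while in growth medium Myog and Myh3 stood near 0 in both lines.

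Of the genes that rose in growth medium, Smoc2 had a value of -2.99 ± 0.44, adjusted p = 0.0004, Igfbp2 of -1.85 ± 0.32, adjusted p = 0.0015 and Sox11 of -3.45 ± 0.48, adjusted p = 0.00025, so their log2 rise was smaller on day 3. Sox11 stood at 0.444, 0.265 and 0.0922 FPM in control and 34.8, 34.8 and 32.8 FPM in MUNC genomic cells in growth medium, and 0.0576, 0.0197 and 0.0368 and 2.77, 1.45 and 1.03 FPM on day 3. Gfra1 had a value of 1.56 ± 0.38, adjusted p = 0.018, Cacna1b of 1.0 ± 0.26, adjusted p = 0.023 and Loxl2 of 2.64 ± 0.47, adjusted p = 0.0019, so their log2 rise was larger on day 3. Loxl2 stood at 10.1, 8.03 and 5.24 FPM in control and 249, 381 and 127 FPM in MUNC genomic cells in growth medium, and 5.22, 2.05 and 4.53 and 791, 767 and 826 FPM on day 3. Of the genes that fell, Brinp3 had a value of -1.3 ± 0.29, adjusted p = 0.0091 and Slc24a3 of -1.93 ± 0.28, adjusted p = 0.0004, and both fell to near 0 from a higher control level on day 3. Nefm had a value of 2.8 ± 0.35, adjusted p = 8.9e-05, with 136, 106 and 242 FPM in control and 4.18, 5.17 and 7.86 FPM in MUNC genomic cells in growth medium, and 2.9, 4.14 and 4.46 and 0.653, 0.497 and 0.195 FPM on day 3.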

How the results depend on the processing

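With an added requirement of at least a 1 unit log2 change, 912 (498 higher and 414 lower) genes were called between MUNC genomic and control cells in growth medium, 1264 (527 higher and 737 lower) against the spliced line and 601 (171 higher and 430 lower) for the interaction with medium. A fit on the compared groups alone called 2523 (1209 higher and 1314 lower) against control. For the interaction, edgeR on recovered reads called 777, of which 442 were lower. Without control DM3 replicate 2 the interaction had 784 calls (268 higher), and the higher calls were 318 without genomic DM3 replicate 1 and 328 without genomic DM3 replicate 2. Leaving out 1 library at a time gave 2762 to 3781 calls against control (1306 to 1793 higher, 1456 to 1988 lower), 4034 to 4607 against the spliced line (1750 to 2054 and 2284 to 2553) and 784 to 1345 for the interaction (268 to 549 and 516 to 796). The cause of these shifts was not tested. Of the named genes called in growth medium, 144 of 154 kept their call and direction under every alternative other than the 1 unit requirement, which 15 missed. 1 of the 154 was not tested with the filter at 2 FPM. The calls lost elsewhere are given with the report's values or here. Further losses were those of Ly6e and Hps5 with centring per chromosome (log2 change 0.40, adjusted p = 0.16 and log2 change 0.23, adjusted p = 0.053), of Ly6e, Hps5, Irf3 and Col5a1 in a fit of the 2 compared groups alone, of Ly6e, Ldha and Col5a1 with no filter on low values, and of Ldha and Col5a1 with quantile normalization.

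With the replicate number as a block shared by all 6 groups, the interaction had 2265 (1072 higher and 1193 lower) calls, and 5190 genes were called against control. A fit of the control and MUNC genomic pairs alone was not run. Beyond the list counts given beside their results, the block changed no call of a named gene. Genes under the limit of 3 reads in both groups give no usable fold change at this depth.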

Other observations

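Single members of other families moved steeply. Cdh10, a classical cadherin, was at 1.6, 2.23 and 1.06 FPM in control and 38.5, 35.1 and 25.8 FPM in MUNC genomic libraries (log2 change 3.7 ± 0.22, adjusted p = 1.5e-09), and S100a16, a calcium-binding protein, at 18.5, 11.8 and 9.23 FPM in control and 109, 135 and 73.4 FPM in MUNC genomic libraries (log2 change 2.92 ± 0.28, adjusted p = 7.9e-07). Car8, a carbonic anhydrase-related protein, fell from 29.9 ± 9.15 to 2.52 ± 0.39 FPM (log2 change -3.1 ± 0.28, adjusted p = 2.9e-07), and the LIM-domain protein gene Fhl1 fell from 375 ± 37.9 to 112 ± 13.7 FPM (log2 change -1.73 ± 0.19, adjusted p = 2.9e-06). The small heat shock protein gene Hspb1 fell from 197 ± 75.5 to 74.2 ± 20.1 FPM (log2 change -1.36 ± 0.33, adjusted p = 0.0053). In prostaglandin and purine signalling, 6 of 20 tested genes were higher and 6 lower. Ptgfr, the receptor of prostaglandin F2-alpha, which muscle cells use in growth, was at 12.9, 7.06 and 3.95 FPM in control and 0.157, 0.0338 and 0.021 FPM in MUNC genomic libraries (log2 change -2.94 ± 0.34, adjusted p = 6.1e-06). P2rx7, an ATP-gated channel, rose from 5.8 ± 0.62 to 15.2 ± 3.19 FPM (log2 change 1.24 ± 0.21, adjusted p = 0.00033). Of 20 tested imprinted genes, 3 were higher and 4 lower, against 12.2% and 14.5% of all genes tested.

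Most tested genes in a stretch of chromosome 5 around the drug-efflux pump genes were lower, a pattern noticed after the values were seen and given without a test. Of 15 tested genes between Steap4 and 9330182L06Rik, 11 were called lower and 0 higher. Crot, a peroxisomal carnitine acyltransferase, was at 737, 673 and 561 FPM in control and 51.6, 51.8 and 38.9 FPM in MUNC genomic libraries (log2 change -3.77 ± 0.15, adjusted p = 1e-11). Among the others, Tmem243 averaged 77.6 FPM in control and 6.9 FPM in MUNC genomic libraries, and the transcription factor gene Dmtf1 215 and 63 FPM. The spliced MUNC line averaged 66.5 FPM for Crot and 7.25 FPM for Tmem243, and 4 of the 15 genes differed between the 2 overexpressing lines. These genes were named after their values were seen, and the number of copies of the stretch was not measured.

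Some genes were hardly read in one of the 2 compared lines. At most 3 reads in every control library and at least 1 FPM in every MUNC genomic library were found for 30 genes, 27 of which were also called higher than in the spliced line. The reverse held for 38 genes, 26 of which were also lower than in the spliced line. Both sets were chosen by the same MUNC genomic libraries that the test against the spliced line used. The overlaps of 27 and 26 genes were therefore favoured by the choice and are not independent support.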
